A study of Mus musculus with 18 samples.

Results

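Serine synthesis and one-carbon metabolism were followed here through 10 genes of mouse B cells. The members were taken as a list by symbol: Phgdh, Psat1 and Psph of serine synthesis, Shmt1, Shmt2, Mthfd1, Mthfd2 and Mthfd1l of the folate steps that use serine, and Atf4 and Asns of the amino acid response. They are 10 of the 51912 gene identifiers in the table, matched to symbols through the GRCm38 annotation. All 10 passed the filter on low counts in each comparison.

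Serine is made from a glycolytic intermediate by the dehydrogenase Phgdh, the aminotransferase Psat1 and the phosphatase Psph. The hydroxymethyltransferases Shmt1, in the cytosol, and Shmt2, in mitochondria, then split serine into glycine and a one-carbon unit carried on folate, and the Mthfd enzymes convert these units for the synthesis of purines and thymidylate. ATF4 is a transcription factor whose protein is made when eIF2 is phosphorylated, and genes for serine synthesis, mitochondrial folate enzymes and asparagine synthetase (Asns) are among its known targets. Lymphocytes that enter the cell cycle are known to use this pathway.

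RNA was sequenced from B cells of C57BL/6 mice, either WT or Sh3gl1-/-, as 3 biological replicates in each of 6 groups, from littermates. Sh3gl1 encodes endophilin A2, a protein of membrane curvature and endocytosis, and the knockout was not restricted to B cells. Transitional B cells, the recent arrivals in the spleen, and follicular B cells were sorted and left untreated in both genotypes. Follicular cells of both genotypes were also cultured for 14 h, by the labels, with CD40L, the T-cell ligand of CD40. The paper's methods call this culture overnight and a legend gives a longer time. No group was cultured without CD40L, so culture and CD40L cannot be told apart. The labels do not say whether cells of several mice were pooled.

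Libraries held from 12404665 to 18366011 counts. Sh3gl1 had 377 to 591 counts in transitional WT cells, 447 to 569 in follicular WT cells and 802 to 929 after CD40L, against 4 to 11, 1 to 3 and 11 to 22 in the Sh3gl1-/- libraries. All 6 B-cell markers were detected in each group, the 4 follicular markers were higher and the 4 tested transitional markers lower in follicular than in transitional cells of both genotypes, and Rag1 and Rag2 were at 0 in follicular cells. Transcripts of other cells were present: 6 erythroid markers summed to between 3275 and 20830 TPM in the ex vivo libraries. TPM is an abundance scaled to transcript length and library total and is used here to compare genes. CPM is a count scaled to library size with TMM factors and is used to compare 1 gene between libraries.

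All 10 genes, Atf4 and Asns included, were detected in each group. Their summed level was 292 ± 34.6 TPM in transitional WT cells and 255 ± 24.0 TPM in follicular WT cells (SD, n = 3). Of these sums, Atf4 and Asns together made up 59.2 ± 13.2 and 66.4 ± 4.77 TPM (SD, n = 3). After CD40L the sum of the 10 genes was 633 ± 144 TPM in WT and 496 ± 78.6 TPM in Sh3gl1-/- cells (SD, n = 3). In follicular Sh3gl1-/- cells ex vivo it was between 222 and 261 TPM. In follicular WT cells Atf4 had the highest level, 65.0 ± 4.67 TPM, followed by Phgdh at 54.5 ± 5.63 TPM and Shmt2 at 34.3 ± 6.98 TPM (SD, n = 3), and the libraries of these 3 genes did not overlap. Psph, Mthfd1, Psat1, Mthfd2 and Shmt1 lay between 28.0 and 14.7 TPM, and in this stretch only Psph and Mthfd1 had neighbouring ranges that did not overlap. Mthfd1l, the mitochondrial formate-producing enzyme, stood at 6.41 ± 1.33 TPM and Asns at 1.44 ± 0.75 TPM (SD, n = 3), below all others and apart from each other. After CD40L Phgdh came first and Shmt2 second in both genotypes, with overlapping libraries, and Atf4 next. Mthfd1l and Asns remained the lowest, and no longer differed beyond their spread, at 10.8 ± 1.25 and 11.9 ± 2.31 TPM in WT cells (SD, n = 3).

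**Figure D1:**
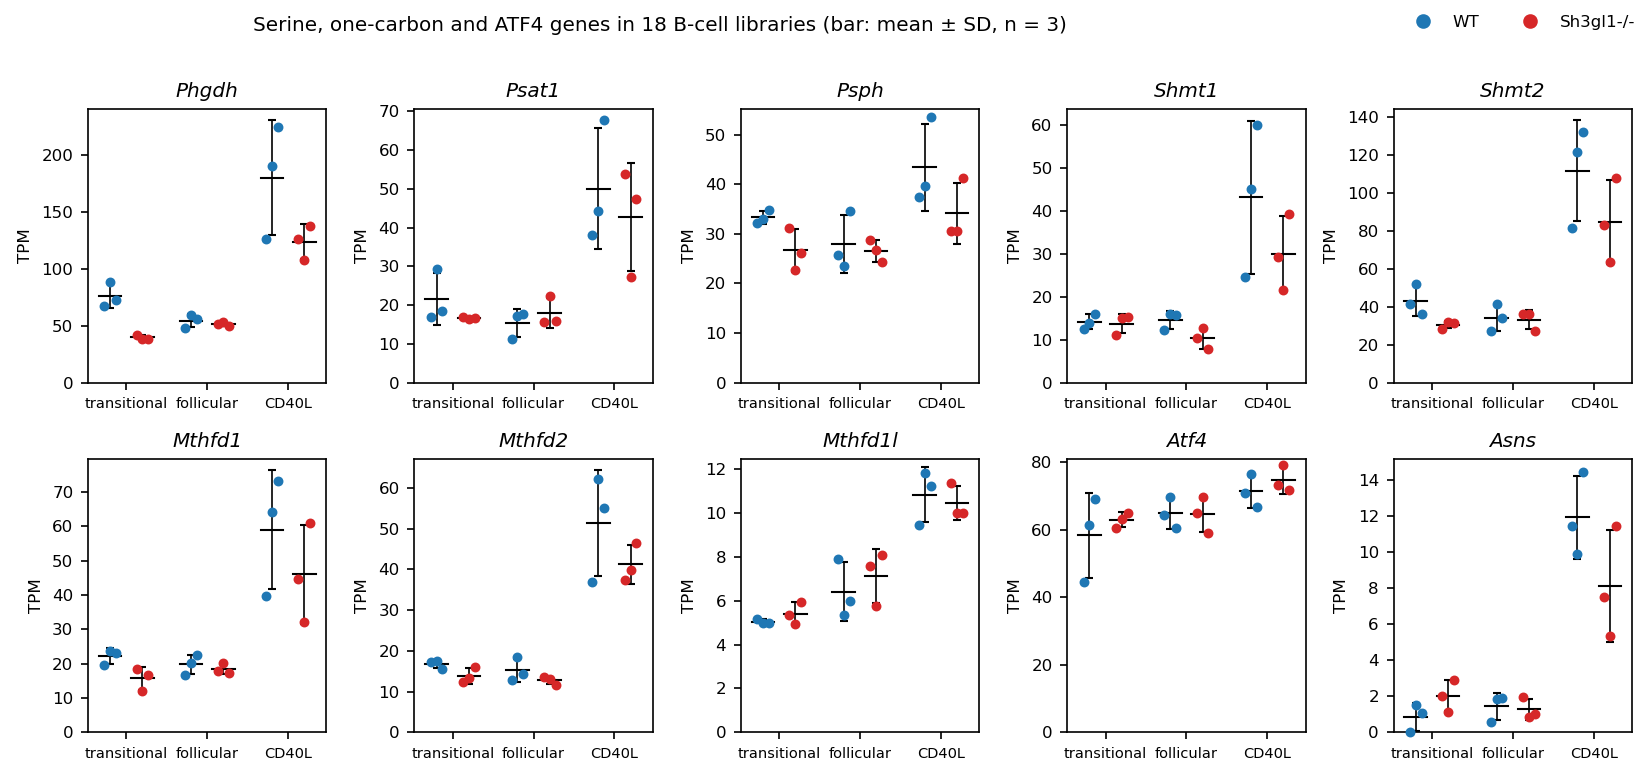
Level of each of the 10 genes in TPM (linear axis from 0) in transitional cells, follicular cells ex vivo and CD40L-cultured follicular cells. Points are libraries of WT (blue) and Sh3gl1-/- (red) mice, and bars are the mean ± SD of 3. The CD40L libraries stand above the follicular ex vivo ones for 9 genes in both genotypes with wide spread, Atf4 is nearly level, and Phgdh in transitional cells is lower in Sh3gl1-/- libraries.

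The largest changes were seen after CD40L culture. In WT cells all 10 genes were called higher than in follicular cells ex vivo, where 23.6% of the 14460 genes tested were called higher and 49.3% were called in either direction (edgeR's quasi-likelihood test, Benjamini-Hochberg adjusted p under 0.05). In Sh3gl1-/- cells 9 were called higher, where 20.6% of all genes were called higher and 42.4% in either direction, and Atf4 was not called. The median log2 fold change of the 10 genes was 2.04 in WT and 1.39 in Sh3gl1-/- cells, against -0.08 and -0.03 over all genes tested. In both genotypes the 3 cultured libraries lay above the 3 ex vivo libraries for all 10 genes, a pattern shown by 25.9% of 15117 genes in WT and 25.1% in Sh3gl1-/- cells. The 10 genes were chosen with earlier results of these data known, so these shares describe the list and are no test of it. In bulk RNA, fewer cells of a type and less RNA per cell cannot be told apart.

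Among the serine synthesis genes, Phgdh (ENSMUSG00000053398, chromosome 3 from 98313170 to 98339990, GRCm38, minus strand), which catalyses the first and committed step, had 72.1, 87.9 and 84.3 CPM in the 3 follicular WT libraries and 223, 314 and 393 CPM after CD40L. In Sh3gl1-/- cells it had 80.0, 80.7 and 81.0 CPM ex vivo and 209, 177 and 216 CPM after culture. The ex vivo libraries of the genotypes interleaved, whereas each cultured Sh3gl1-/- library was below each cultured WT library. Phgdh rose 3.73-fold in WT (log2 1.9, SE 0.17, edgeR adjusted p = 8.37e-07) and 2.46-fold in Sh3gl1-/- cells (log2 1.3, SE 0.17, edgeR adjusted p = 3.23e-05). Its counts were not whole in 16 of 18 libraries, so reads were shared with other annotated sequence.

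Psat1 (ENSMUSG00000024640, chromosome 19 from 15904678 to 15947337), the aminotransferase of the next step, went from 18.7, 27.6 and 29.8 CPM to 86.7, 99.0 and 153 CPM in WT cells and from 31.6, 35.4 and 32.1 CPM to 101, 53.6 and 96.1 CPM in Sh3gl1-/- cells. The cultured libraries of both genotypes overlapped, with 1 low Sh3gl1-/- library. The rise was 4.37-fold in WT (log2 2.13, SE 0.26, edgeR adjusted p = 1.31e-05) and 2.5-fold in Sh3gl1-/- cells (log2 1.32, SE 0.25, edgeR adjusted p = 0.000811). Psph (ENSMUSG00000029446, chromosome 5 from 129765558 to 129787449), the last enzyme of the route, changed least of the 3, from 25.8 to 33.9 CPM before and 45.3 to 58.9 CPM after culture in WT cells. Its log2 fold change was 0.75 (SE 0.14, edgeR adjusted p = 0.000594) in WT and 0.53 (SE 0.14, edgeR adjusted p = 0.00843) in Sh3gl1-/- cells. Psph overlaps Cct6a on the opposite strand and had fractional counts in all 18 libraries, and whether counting used strand is not stated, so its values are less certain.

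All 5 folate enzymes were called higher in both genotypes. Mthfd2 (ENSMUSG00000005667, chromosome 6 from 83305691 to 83325908), the mitochondrial dehydrogenase and cyclohydrolase that is low in most resting adult cells, had 15.2, 18.2 and 16.3 CPM ex vivo and 66.8, 101 and 97.9 CPM after CD40L in WT cells. In Sh3gl1-/- cells it had 17.1, 15.1 and 13.8 CPM ex vivo and 61.6, 52.5 and 72.1 CPM after culture. Its log2 fold change was 2.39 (SE 0.18, edgeR adjusted p = 1.44e-07) in WT and 2.0 (SE 0.18, edgeR adjusted p = 8.8e-07) in Sh3gl1-/- cells, with the smallest SE relative to its size of the 10 genes in each genotype. Its paralogue Mthfd2l was near the detection limit, with 3 to 23 counts in the cultured WT libraries, and was not called in either genotype (log2 -0.24, SE 0.59, edgeR adjusted p = 0.757 in WT and 0.42, SE 0.57, adjusted p = 0.582 in Sh3gl1-/- cells).

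Shmt2 (ENSMUSG00000025403, chromosome 10 from 127517123 to 127522444), the mitochondrial serine hydroxymethyltransferase, had 44.5, 64.3 and 56.6 CPM ex vivo and 166, 222 and 263 CPM after CD40L in WT cells. In Sh3gl1-/- cells it had 61.5, 52.7 and 50.3 CPM before and 156, 113 and 189 CPM after culture. The lowest cultured WT library fell inside the Sh3gl1-/- range. Shmt2 rose by 1.95 on the log2 scale in WT (SE 0.21, edgeR adjusted p = 3.89e-06) and by 1.46 in Sh3gl1-/- cells (SE 0.20, edgeR adjusted p = 6.45e-05). The cytosolic Shmt1 (ENSMUSG00000020534, chromosome 11 from 60788104 to 60811718) rose by 2.16 (SE 0.26, edgeR adjusted p = 1.07e-05) and 1.59 (SE 0.25, edgeR adjusted p = 0.000192), from 16.1 to 22.3 CPM ex vivo to 57.4 to 119.8 CPM after culture in WT libraries. Both isozymes thus rose, and the ratio of Shmt2 to Shmt1 in TPM was 2.33 ± 0.24 before and 2.74 ± 0.56 after culture in WT cells (SD, n = 3), with overlapping libraries. It was 3.27 ± 0.36 before and 2.84 ± 0.09 after culture in Sh3gl1-/- cells (SD, n = 3), also with overlap. In counts the estimated rise of Shmt1 was above that of Shmt2 in both genotypes, opposite to the TPM ratio in WT cells. The ex vivo TPM ratios of the genotypes did not overlap. The counts behind them differed by 0.01 (SE 0.15) for Shmt1 and -0.01 (SE 0.14) for Shmt2 on the log2 scale. TPM rests on the transcript lengths that RSEM assigned, so no shift between the isozymes is read from these ratios. Shmt1 overlaps Smcr8 on the opposite strand, and its counts were fractional in all 18 libraries.

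Mthfd1 (ENSMUSG00000021048, chromosome 12 from 76255298 to 76319803), the cytosolic trifunctional enzyme, had 22.1, 36.4 and 40.4 CPM ex vivo and 88.5, 163 and 193 CPM after CD40L in WT cells, and 35.5, 37.3 and 33.7 CPM before and 108, 66.4 and 142 CPM after culture in Sh3gl1-/- cells. The cultured libraries of each genotype spread over more than the gap between the genotypes. Its log2 fold change was 2.14 (SE 0.31, edgeR adjusted p = 5.9e-05) in WT and 1.55 (SE 0.30, edgeR adjusted p = 0.00096) in Sh3gl1-/- cells. Mthfd1l (ENSMUSG00000040675, chromosome 10 from 3973118 to 4167081) rose less, by 0.92 (SE 0.18, edgeR adjusted p = 0.000861) and 0.57 (SE 0.18, edgeR adjusted p = 0.0207). The call for Mthfd1l in Sh3gl1-/- cells was lost without follicular Sh3gl1-/- replicate 2 (log2 0.45, edgeR adjusted p = 0.0698) or CD40L Sh3gl1-/- replicate 1 (log2 0.51, edgeR adjusted p = 0.07), in a range of 0.00602 to 0.07 over its 12 alternatives.

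Atf4 mRNA (ENSMUSG00000042406, chromosome 15 from 80255184 to 80257541), whose protein level is mainly set at translation, had 88.1, 93.6 and 83.8 CPM in follicular WT libraries and 114, 114 and 106 CPM after CD40L. In Sh3gl1-/- libraries it had 92.7, 96.2 and 87.8 CPM before and 111, 118 and 102 CPM after culture. These groups did not overlap, although the change was the smallest of the 10 genes, 0.30 (SE 0.10, edgeR adjusted p = 0.0187) in WT and 0.24 (SE 0.10, edgeR adjusted p = 0.0591) in Sh3gl1-/- cells on the log2 scale. The WT call was lost with scaling by total counts alone (0.16, edgeR adjusted p = 0.213), without the filter on low counts (adjusted p = 0.0923) and without follicular WT replicate 1 or 3 or CD40L WT replicate 1 or 2 (edgeR adjusted p = 0.0524, 0.0806, 0.0505 and 0.059), in a range of 0.00135 to 0.213 over 12 alternatives. Scaling by total counts alone moved the median log2 response of all genes in WT cells from -0.08 to -0.22, so the size of each WT response is relative to this choice. In Sh3gl1-/- cells Atf4 was called by DESeq2 (0.25, adjusted p = 0.03) and without CD40L Sh3gl1-/- replicate 3 (0.33, edgeR adjusted p = 0.0293), in a range of 0.0293 to 0.194.

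Asns (ENSMUSG00000029752, chromosome 6 from 7675169 to 7693254), which makes asparagine and is a standard reporter of ATF4, was nearly absent ex vivo and had the largest fold change of the list. It had 13, 33 and 20 counts (0.84, 2.04 and 1.51 CPM) in follicular WT libraries and 273, 252 and 431 counts (18.9, 16.9 and 26.4 CPM) after CD40L. In Sh3gl1-/- libraries it had 43, 22 and 25 counts ex vivo and 169, 103 and 305 counts after culture. The fold change was 13.8 in WT (log2 3.78, SE 0.41, edgeR adjusted p = 4.74e-06) and 6.09 in Sh3gl1-/- cells (log2 2.61, SE 0.39, edgeR adjusted p = 0.000122). With few counts ex vivo the 95% interval on the log2 scale ran from 2.91 to 4.66 in WT and from 1.77 to 3.44 in Sh3gl1-/- cells.

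**Figure D2:**
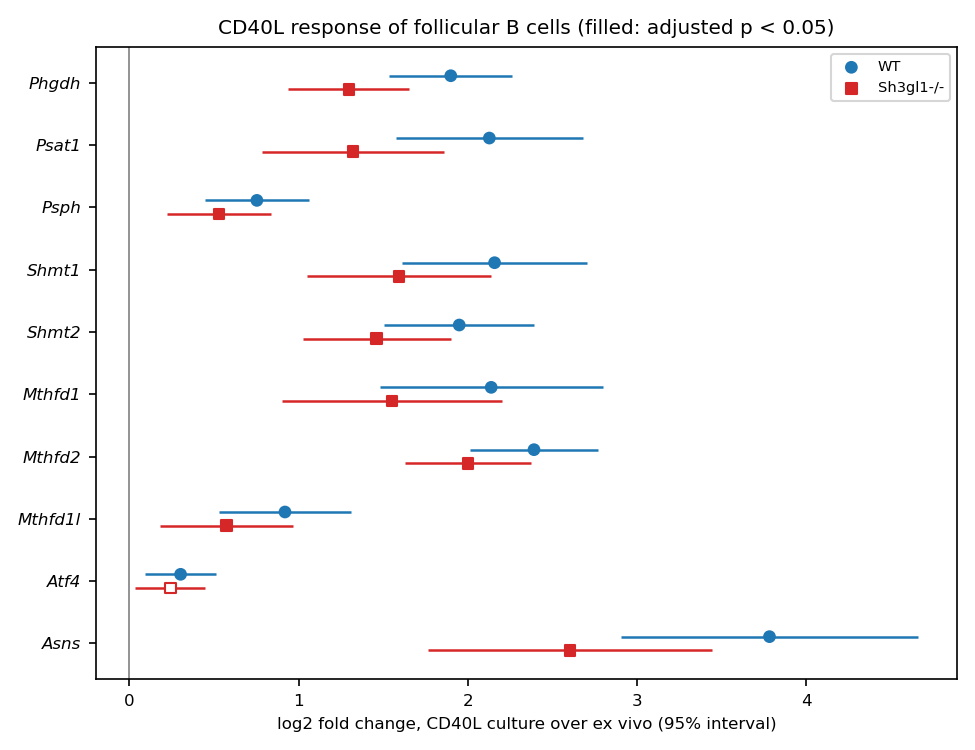
log2 fold change of CD40L-cultured over ex vivo follicular cells for each gene, with its 95% interval, in WT (blue circles) and Sh3gl1-/- cells (red squares). Filled symbols passed an adjusted p of 0.05, each gene but Atf4 in Sh3gl1-/- cells, and each Sh3gl1-/- estimate lies to the left of the WT estimate with overlapping intervals for all genes.

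The promoter of Asns is shown because it was the only one of the list to hold the composite element bound by ATF4 with C/EBP proteins, written TGATGNAA and searched on both strands of RefSeq windows from 250 bases before to 50 after each start (GRCm38.p6). All 10 genes had a window, Psat1 with a second. The 30 bases at chr6:7693214-7693243, minus strand, are given 5′ to 3′ with the match in capitals.
Asns: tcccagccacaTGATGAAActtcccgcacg
The match began at position -23 from the RefSeq start and lies inside the gene as GENCODE draws it. Of 32851 promoter windows, 3.97% held this motif. The E-box CACGTG was in 0 of the 10 genes' windows and in 7.15% of all. These are matches of letters in short windows and no measure of binding.

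Each of the 10 genes had a smaller response estimate in Sh3gl1-/- than in WT cells, and none of these differences was called. The median difference was -0.53 on the log2 scale over the 10 genes and 0.01 over all genes. The 10 genes moved together across libraries, so their shared sign is not a count of separate observations. Their summed level in the cultured libraries overlapped between the genotypes, at 475.7 to 759.2 TPM in WT and 417.3 to 574.5 TPM in Sh3gl1-/- cells. The interaction test in edgeR called 0 of 14460 genes, with 1278 at an unadjusted p under 0.05 (percent called 0), and DESeq2 called 37. The largest differences were those of Asns, -1.18 (95% interval -2.36 to 0.01, edgeR adjusted p = 0.565), Psat1, -0.81 (-1.56 to -0.05, adjusted p = 0.543) and Phgdh, -0.60 (-1.10 to -0.10, adjusted p = 0.511). Those of the other 7 genes ran from -0.59 for Mthfd1 to -0.06 for Atf4, with intervals that include 0. With all genes of at least 1 count tested, Psat1 was called (-0.79, edgeR adjusted p = 0.0288, in a range of 0.0288 to 0.844 over 18 alternatives).

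Other transcripts moved with the CD40L response. The 6 cell cycle markers (Mki67, Top2a, Ccnb1, Cdk1, Rrm2 and Mcm5) summed to between 40.4 and 47.9 TPM in follicular WT libraries and between 131 and 359 TPM after CD40L, and 6 of 6 were called higher. In Sh3gl1-/- libraries they went from between 52.1 and 55.5 TPM to between 88.2 and 202 TPM, and 4 of 6 were called higher. Erythroid markers fell in 6 of 6 cases in both genotypes, from between 3275 and 8932 TPM to between 10.9 and 770 TPM in WT libraries and from between 6888 and 19820 TPM to between 70.2 and 241 TPM in Sh3gl1-/- libraries. All 6 T-cell markers and all 3 NK markers also fell in both genotypes, and 5 of 5 tested neutrophil markers fell in WT and 4 in Sh3gl1-/- cells. Ly6g, a defining neutrophil marker, was at 0 in follicular WT cells before and after culture. Of the 6 B-cell markers 4 fell in WT and 3 in Sh3gl1-/- cells. Of the 4 follicular markers 3 fell and 1 rose in both genotypes. Of 5 macrophage markers 3 fell and 1 rose in both. Of 5 plasma cell markers 2 fell in both, while 1 rose in WT and 2 in Sh3gl1-/- cells. What part any of these lists had in the responses was not tested.

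The rest of the pathway was read from lists of related genes, also chosen with earlier results of these data known. Over all 14460 genes tested, 23.6% were called higher and 25.7% lower in WT cells, and 20.6% and 21.8% in Sh3gl1-/- cells. Of 16 other folate genes 15 were tested, and 8 rose in WT and 9 in Sh3gl1-/- cells. None was called lower, and the medians of the 15 changes were 0.83 and 0.73 on the log2 scale. Thymidylate synthase, Tyms, had the largest change, 2.52 (SE 0.36, edgeR adjusted p = 5.16e-05) in WT and 1.76 (SE 0.35, edgeR adjusted p = 0.0011) in Sh3gl1-/- cells. Slc25a32, the mitochondrial folate carrier, was not called (-0.13, SE 0.28, and -0.03, SE 0.28). Of 3 tested genes of the glycine cleavage system 2 rose in both genotypes, Gcsh, the lipoyl carrier protein, with log2 fold changes of 1.87 (SE 0.22, WT) and 2.11 (SE 0.23, Sh3gl1-/-), and Dld, a subunit shared with other dehydrogenases.

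Of 5 tested genes of the methionine cycle and transsulfuration, Ahcy and Mat2a rose in both genotypes, Ahcy by 1.37 (SE 0.16) and 1.04 (SE 0.16), while Mat2b fell by 0.51 (SE 0.12, edgeR adjusted p = 0.00267) in WT cells. Of 8 tested genes of serine transport and use 3 rose and 2 fell in WT cells, and 2 rose and 1 fell in Sh3gl1-/- cells. With so few genes these counts are near the shares over all genes. Those shares were 23.6% higher and 25.7% lower in WT cells, and 20.6% and 21.8% in Sh3gl1-/- cells. The mitochondrial serine carrier Sfxn1 rose in both, and Sfxn3, its relative, fell by 0.78 (SE 0.17) and 0.70 (SE 0.17). Slc1a4, a neutral amino acid transporter, was called higher in both genotypes from few counts, 3 to 16 before and 10 to 65 after culture in WT libraries and 0 to 4 before and 11 to 29 after in Sh3gl1-/- libraries.

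Of the 21 other ATF4 targets 16 were tested, and 6 rose in WT and 9 in Sh3gl1-/- cells, with none lower. The medians of the 16 changes were 0.59 in WT and 1.28 in Sh3gl1-/- cells on the log2 scale. Their median difference between the genotypes was 0.23, with 9 of the 16 estimates above 0, and none was called. With signs this mixed, no common direction is read for these targets. Trib3, a pseudokinase induced by ATF4, rose from 6 to 23 counts to 50 to 147 counts in WT libraries (log2 2.62, SE 0.50, edgeR adjusted p = 0.000609) and from 8 to 13 to 39 to 42 counts in Sh3gl1-/- libraries (log2 1.81, SE 0.51, edgeR adjusted p = 0.0108). Chac1, a glutathione-degrading enzyme, had 0 to 4 counts in follicular WT libraries and 10 to 24 after CD40L. It had 0 counts in the 3 follicular Sh3gl1-/- libraries and 5 to 19 after culture, at least 4.8-fold higher when set against a floor of 3 counts per library. Sesn2, a stress-induced sensor of leucine, was called in Sh3gl1-/- cells (1.16, SE 0.26, edgeR adjusted p = 0.00298) and not in WT cells (0.58, SE 0.27, edgeR adjusted p = 0.0861), and the difference was not called (0.58, SE 0.38, edgeR adjusted p = 0.689). Ddit3, the CHOP factor of prolonged stress, was not called (-0.32, SE 0.23, and -0.45, SE 0.23), nor was Atf5, which had 1 to 18 counts in the CD40L libraries.

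Of the kinases that phosphorylate eIF2, Eif2ak4 (GCN2, the sensor of uncharged tRNA) was not called (-0.14 in WT, -0.22 in Sh3gl1-/- cells, SE 0.15 for both), and Eif2ak3 (PERK, the sensor of the endoplasmic reticulum) fell by 1.31 (SE 0.14, edgeR adjusted p = 4.22e-06) and 0.79 (SE 0.14, edgeR adjusted p = 0.000434). Eif2s1, which encodes the phosphorylated subunit of eIF2, rose by 1.35 (SE 0.13) and 0.94 (SE 0.13). Cytosolic aminoacyl-tRNA synthetases, several of which are ATF4 targets, rose in 18 of 20 cases in WT and 17 of 20 in Sh3gl1-/- cells, with medians of 1.05 and 0.76. Iars had the largest change in WT cells, 1.81 (SE 0.27, edgeR adjusted p = 7.92e-05), and Vars in Sh3gl1-/- cells, 1.73 (SE 0.38, edgeR adjusted p = 0.0024), where WT cells had -0.02 (SE 0.37) and the difference was not called (1.75, SE 0.53, edgeR adjusted p = 0.465). The interaction test called no gene of these lists, as it called 0 of all 14460 genes, so it cannot set these lists apart from other genes.

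**Figure D3:**
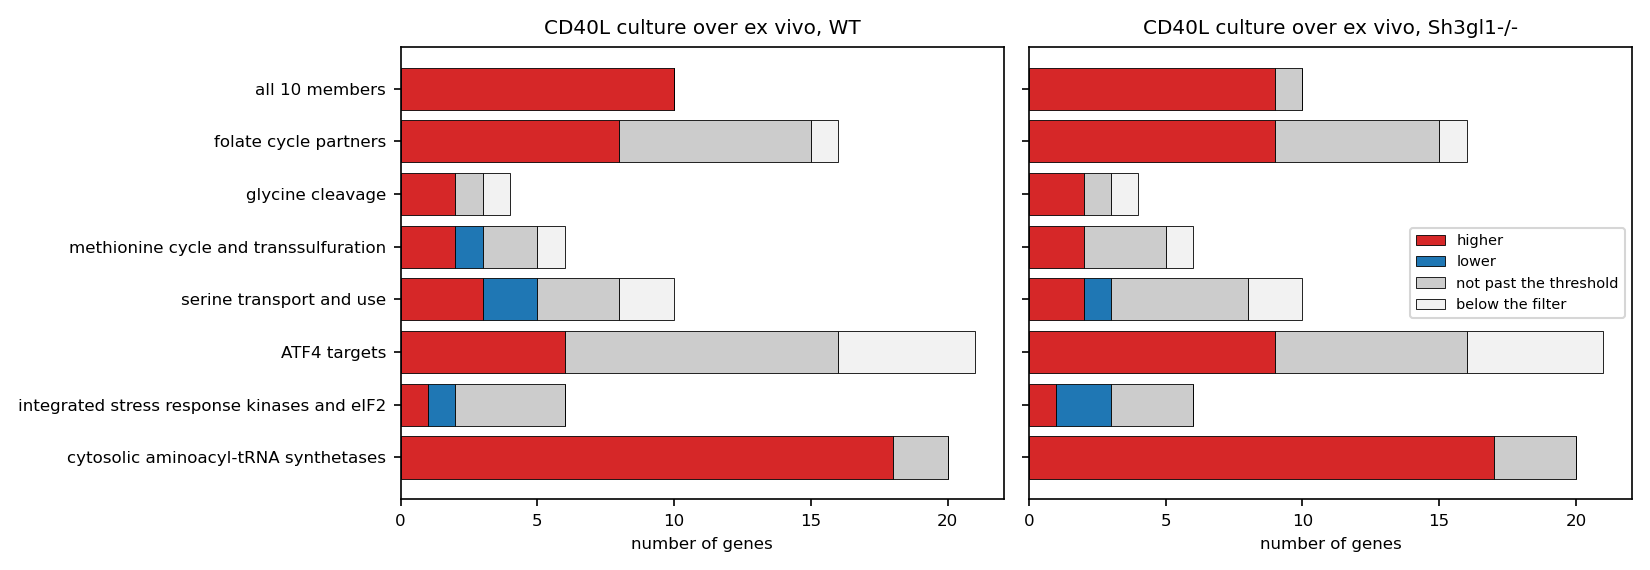
Number of genes in each list called higher (red), called lower (blue), tested without a call (grey) or below the filter on low counts (white) after CD40L, in WT (left) and Sh3gl1-/- cells (right). The 10 genes (10 and 9 higher) and the aminoacyl-tRNA synthetases (18 and 17 of 20) are mostly red, and genes of serine transport and use fall on both sides.

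Without endophilin A2, transitional cells had less Phgdh. It had 97.9, 131 and 107 CPM in the WT and 63.8, 58.1 and 61.3 CPM in the Sh3gl1-/- libraries, and these ranges did not overlap. The log2 fold change was -0.87 (SE 0.11, 95% interval -1.13 to -0.62, edgeR adjusted p = 0.00929), which is 0.546 of the WT level. In TPM the groups were 76.4 ± 11.1 and 39.7 ± 2.05 (SD, n = 3), and the ratio of Phgdh to Psat1 was 3.66 ± 0.54 in WT and 2.40 ± 0.09 in Sh3gl1-/- libraries (SD, n = 3). Phgdh was the 1 gene of the 10 called, where 3.73% of 13774 genes were called in either direction. Its estimate stayed between -0.96 and -0.75 over 12 alternatives, and the call was lost without transitional Sh3gl1-/- replicate 3 (-0.88, edgeR adjusted p = 0.0585, in a range of 4.6e-09 to 0.0585).

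Shmt2, Mthfd1, Mthfd2 and Psph also had each Sh3gl1-/- library below each WT library in transitional cells, so that 5 of the 10 genes were lower without overlap, as were 13.5% of 15117 genes. For none of these 4 was the change called. Shmt2 had 64.6, 78.4 and 59.3 CPM in WT and 46.9, 51.4 and 48.7 CPM in Sh3gl1-/- libraries (log2 -0.46, SE 0.12, edgeR adjusted p = 0.0622), and Mthfd1 had 35.9, 49.7 and 46.2 CPM and 33.3, 26.7 and 32.1 CPM (log2 -0.52, SE 0.14, edgeR adjusted p = 0.079). DESeq2 called both (adjusted p = 0.0106 for Shmt2 and 0.0195 for Mthfd1), as did edgeR without the filter on low counts (0.0117 and 0.0106), in ranges of 0.0106 to 0.222 and 0.0106 to 0.352. A two-sided exact permutation test gave p = 0.1 for each of the 5, the smallest value that 3 libraries against 3 allow. Libraries without overlap always give this value, so it adds nothing to their order. Mthfd2 stood at -0.36 (SE 0.14), Shmt1 at -0.29 (SE 0.14), Psat1 at -0.28 (SE 0.14) and Psph at -0.24 (SE 0.12).

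Atf4 and Mthfd1l had estimates just above 0 in transitional cells, 0.18 (SE 0.15) each. Asns had 0, 32 and 6 counts in the WT and 51, 26 and 68 counts in the Sh3gl1-/- transitional libraries, which overlap (log2 1.74, 95% interval -0.34 to 3.82, edgeR adjusted p = 0.311). It was called without the filter on low counts (adjusted p = 0.0398, in a range of 0.0398 to 0.632). Over the 10 genes, which moved together across libraries and are not separate observations, the median was -0.29, against 0.02 over all genes.

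Several other lists moved in the same comparison. All 6 cell cycle markers were called lower, and they summed to between 138 and 184 TPM in WT and between 72.0 and 78.0 TPM in Sh3gl1-/- transitional libraries. All 6 erythroid markers were called higher (5398 to 9437 against 10350 to 20830 TPM). Of the plasma cell markers 1 of 5, Jchain, was called higher, with sums of 418 to 643 against 1008 to 3924 TPM, and of the neutrophil markers 1 of 5 tested, Camp, with sums of 98.3 to 174 against 223 to 1043 TPM. Of the 4 tested transitional markers 1, Cd24a, was called lower, and of the 4 follicular markers 1, Ighd, was called higher while the other 3 had negative estimates. The 5 listed transitional markers summed to 1387 to 1580 TPM in WT against 718 to 1245 TPM in Sh3gl1-/- libraries. The follicular markers summed to 2861 to 3699 against 3708 to 3956 TPM. Among related genes, Tyms (-0.84, SE 0.14, edgeR adjusted p = 0.0192) and Gart, an enzyme of purine synthesis, were lower, as were Cars, Eprs, Iars and Rars of the 20 aminoacyl-tRNA synthetases, and none of the 12 tested ATF4 targets was called. What part these transcripts have in the difference in Phgdh was not tested.

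**Figure D4:**
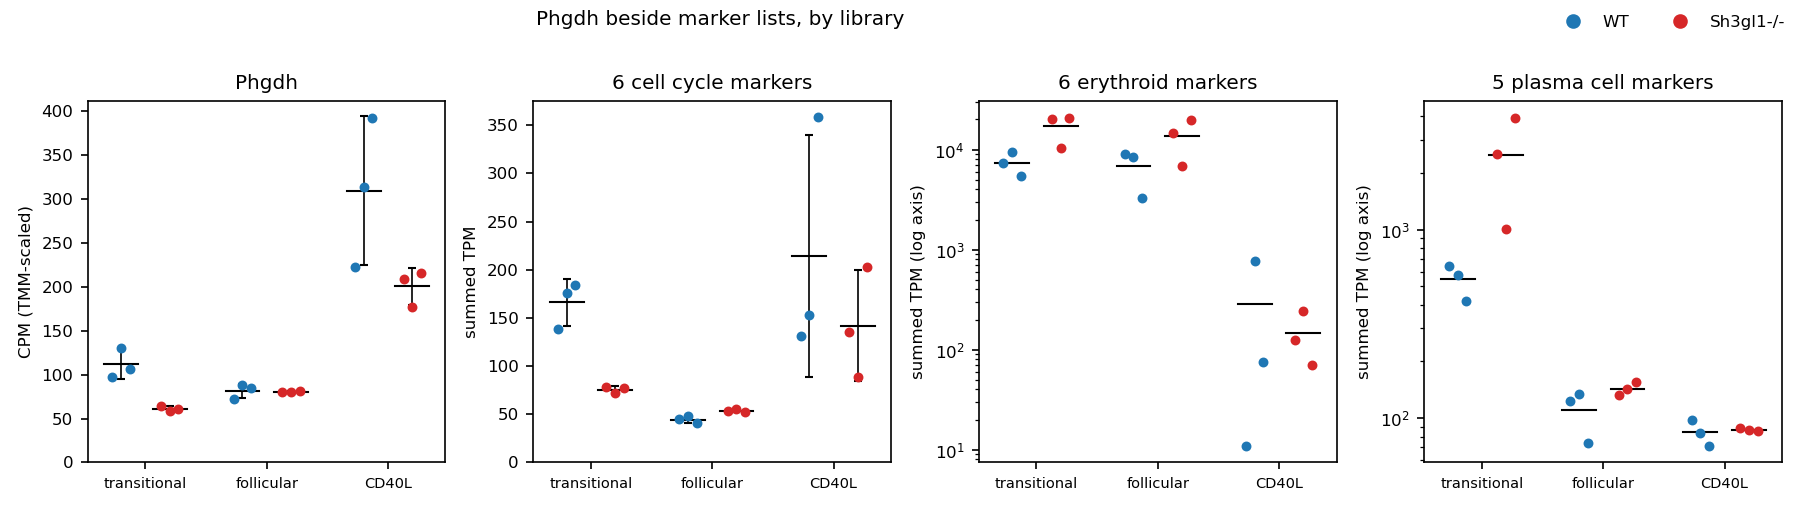
Phgdh in CPM and the summed TPM of cell cycle, erythroid and plasma cell markers in each library (the last pair on a log axis), with the group mean and, on linear axes, the SD of 3. In transitional cells Phgdh and the cell cycle markers are lower, and the erythroid and plasma cell markers higher, in each Sh3gl1-/- library than in each WT library.

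In follicular cells ex vivo none of the 10 genes was called between the genotypes, where 0.845% of 13610 genes were (115 genes, 57.4% of them higher, and 47% with scaling by total counts alone). The median log2 fold change of the list was 0.03 and that of all genes 0.00. Phgdh differed by -0.02 (95% interval -0.23 to 0.20), Shmt2 by -0.01 (-0.32 to 0.30) and Atf4 by 0.06 (-0.14 to 0.26). Psat1 was higher in each of the 3 Sh3gl1-/- libraries, 31.6, 35.4 and 32.1 CPM against 18.7, 27.6 and 29.8 CPM, as were 7.78% of genes. Its change of 0.38 (95% interval 0.03 to 0.74) was not called (edgeR adjusted p = 0.41). T-cell markers were called higher in 2 of 6 cases, and no erythroid or cell cycle marker was called. All 6 erythroid and all 6 cell cycle estimates were positive. The cell cycle markers summed to 40.4 to 47.9 TPM in WT and 52.1 to 55.5 TPM in Sh3gl1-/- libraries. Of 3 tested transitional markers 1 was called lower, and of 4 follicular markers 1 was called higher. The 5 tested neutrophil markers had a median of 2.01 and none was called. What part these transcripts had was not tested. The remaining 6 of the 10 genes had estimates between -0.11 for Mthfd2 and 0.54 for Asns, with intervals that include 0. Shmt1 showed how the scale matters: it stood at 14.7 ± 2.12 TPM in WT and 10.3 ± 2.44 TPM in Sh3gl1-/- cells (SD, n = 3), while its counts differed by 0.01 on the log2 scale (SE 0.15). The TPM of a gene rests on the transcript lengths that RSEM assigned, and Shmt1 has 11 annotated transcripts.

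After CD40L 9 of the 10 genes had lower estimates in Sh3gl1-/- than in WT cells, with a median of -0.47 against 0.01 over all genes, and none was called, where 0.0227% of 13188 genes were (3 genes; 932 had an unadjusted p under 0.05, and DESeq2 called 79). The 10 genes moved together across libraries, so the number of lower estimates is not a count of separate observations. Phgdh and Psph were lower in each Sh3gl1-/- library than in each WT library, as were 7.02% of genes. The difference in Phgdh was -0.60 (95% interval -1.02 to -0.18, edgeR adjusted p = 0.579) and was called without the filter on low counts (-0.60, adjusted p = 0.0178, in a range of 0.0178 to 1). Mthfd2 differed by -0.48 (-0.88 to -0.08, adjusted p = 0.664), Shmt2 by -0.48 (-0.94 to -0.01, adjusted p = 0.704) and Asns by -0.63 (-1.30 to 0.05, adjusted p = 0.709), all in edgeR. Atf4 did not share the direction (0.02, 95% interval -0.26 to 0.29), and its estimate was -0.001 with RLE factors and with DESeq2. The 6 cell cycle markers also had lower estimates, with a median of -0.69 and none called.

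**Figure D5:**
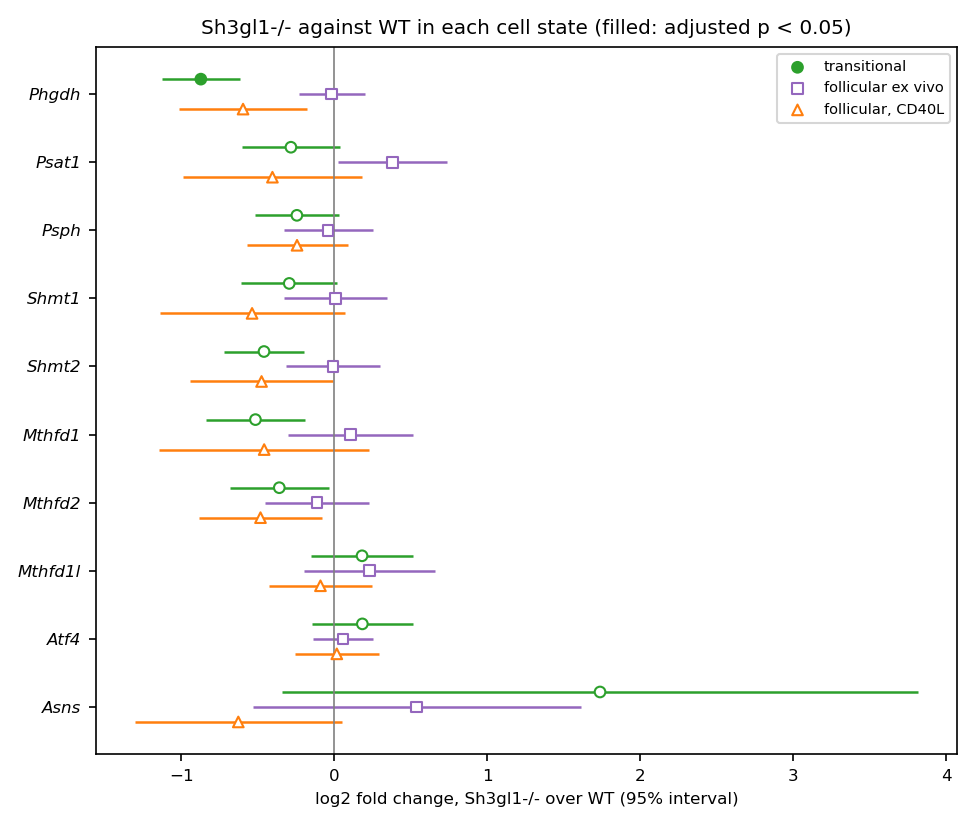
log2 fold change of Sh3gl1-/- over WT cells for each gene with its 95% interval in transitional cells (green circles), follicular cells ex vivo (purple squares) and CD40L-cultured follicular cells (orange triangles). The only filled symbol, an adjusted p under 0.05, is Phgdh in transitional cells, and the follicular ex vivo estimates lie near 0 for most genes.

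The last comparison set follicular against transitional cells within each genotype, the step from recent emigrant to mature B cell. In WT cells 3 of the 10 genes were called lower in follicular cells, where 14.2% of 14580 genes were called lower and 25.9% in either direction. They were Phgdh (log2 -0.45, SE 0.11, edgeR adjusted p = 0.0082), Psat1 (-0.51, SE 0.17, adjusted p = 0.036) and Shmt1 (-0.48, SE 0.15, adjusted p = 0.0272). The transitional libraries of these 3 genes and of Mthfd2 were above the follicular ones without overlap, as were those of 20.4% of genes, and those of Mthfd1l were below. Mthfd1 stood at -0.41 (SE 0.19, edgeR adjusted p = 0.121), and with the replicate number as a block, which paired these libraries, it was called (-0.44, SE 0.13, edgeR adjusted p = 0.0217), as it was without the filter on low counts (adjusted p = 0.0238, in a range of 0.0217 to 0.412). The Phgdh call held in all 12 alternatives run (adjusted p from 0.000521 to 0.0491). Those of Psat1 and Shmt1 were lost with all 18 libraries in 1 fit (edgeR adjusted p = 0.139 and 0.153), for Psat1 also without transitional WT replicate 2 or 3 or follicular WT replicate 1 (0.163, 0.069 and 0.147) and for Shmt1 without transitional WT replicate 1 or 2 or follicular WT replicate 1 or 3 (0.0664, 0.0758, 0.118 and 0.0649), in ranges of 0.00492 to 0.163 and 0.0119 to 0.153.

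In Sh3gl1-/- cells Phgdh went the other way. Its 3 follicular libraries (80.0 to 81.0 CPM) were above its 3 transitional libraries (58.1 to 63.8 CPM). Mthfd1 had the same order, and 14.3% of 15117 genes did. For Phgdh this was a log2 fold change of 0.39 (SE 0.11, edgeR adjusted p = 0.0354). Phgdh was the 1 gene of the 10 called, where 3.7% of all genes were called higher and 10.4% in either direction. This call was lost when any 1 of the 6 libraries was left out (edgeR adjusted p between 0.0658 and 0.135) and with all 18 libraries in 1 fit (adjusted p = 0.147), in a range of 0.00652 to 0.147. The difference between the genotypes in this step (the maturation difference) was 0.84 for Phgdh (95% interval 0.51 to 1.17, edgeR adjusted p = 0.0573), and 0.0686% of genes were called (10 of 14580, of which 70% were higher, and 40% of 5 with scaling by total counts alone). It was called with the replicate block (0.84, SE 0.11, edgeR adjusted p = 0.0173), by DESeq2 (0.86, adjusted p = 0.000154), without the filter on low counts (0.85, adjusted p = 7.75e-05) and without transitional WT replicate 1 (0.93, edgeR adjusted p = 0.0238), in a range of 7.75e-05 to 0.414 over 18 alternatives. The differences of the other 9 genes were not called and ran from -1.21 for Asns (95% interval -3.68 to 1.26) to 0.65 for Psat1 (0.15 to 1.15, edgeR adjusted p = 0.241). These 2 comparisons and those of genotype share libraries and are not independent. The cell cycle markers fell from transitional to follicular cells in 6 of 6 cases in WT and 4 of 6 in Sh3gl1-/- cells, and 4 of 6 were called in the difference. Macrophage markers fell in 5 of 5 cases in WT (sums of 357 to 438 against 101 to 128 TPM) and 4 of 5 in Sh3gl1-/- cells (322 to 575 against 105 to 234 TPM). Of the plasma cell markers 1 of 5 fell in each genotype, with sums of 418 to 643 against 73.8 to 135 TPM in WT and 1008 to 3924 against 133 to 155 TPM in Sh3gl1-/- cells. B-cell markers fell in 5 of 6 cases in WT and 3 of 6 in Sh3gl1-/- cells, and 1 of 6 T-cell markers rose in each. Their part was not tested.

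Across the 18 libraries the log2 CPM of the 10 genes moved together. Pearson's r between pairs ran from 0.483 for Psph with Atf4 to 0.982 for Shmt2 with Mthfd2, as a description over libraries that include both cultured and ex vivo cells. Outside the list, the gene most like each member in this measure was Cpsf3 for Phgdh (r = 0.984), Nudcd1 for Psat1 (0.986), Cops8 for Psph (0.963), Stip1 for Shmt1 (0.987) and Psmc3 for Shmt2 (0.99). For Mthfd1 it was Abce1 (0.99), for Mthfd2 Pdia6 (0.992), for Mthfd1l Hspa9 (0.963), for Atf4 B930059L03Rik (0.921) and for Asns Sf3b4 (0.948). Atf4 had the lowest best match of the 10 genes.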

How the data were processed

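RNA-seq of 18 libraries in 6 groups of 3 was analysed from 1 deposited table. Per the labels, the authors made stranded polyA libraries (KAPA kit) and named cutadapt 1.9.1, STAR 2.5.2a, RSEM 1.3.0 and GRCm38 in their processing notes, whereas the paper's methods name SMART-Seq HT, Nextera XT, Tophat and Cufflinks. The deposited expected counts are RSEM estimates, not normalized. The deposited TPM values are scaled by the authors to transcript length and library total, and the deposited FPKM values, also the authors', were not used in a test. All 54 columns matched 1 library each.

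Expected counts were rounded and tested with edgeR 4.0.16 in R 4.3.3 (TMM, filterByExpr, glmQLFit, glmQLFTest), within a cell state for genotype and over 12 libraries for CD40L or maturation. p-values were adjusted over all genes tested. The SE is the log2 fold change over the square root of F. Symbols came from GENCODE M21 (51719 of 51912 identifiers), with 1 related gene matched through RefSeq synonyms. Samples were grouped by title. Totals ranged from 12404665 to 18366011 counts, and a floor of 3 counts, for counting error only, equals 0.176 to 0.24 CPM on the TMM scale. No 2 libraries of a group agreed within sampling noise. Same-numbered transitional and follicular libraries of a genotype deviated together (correlations 0.103 to 0.263 in all 6 pairs). So did follicular and CD40L libraries in WT (0.136 to 0.224), and more weakly in Sh3gl1-/- cells (0.03 to 0.119). The labels do not say that the same number means the same mouse. The main fits were unpaired, and only the replicate block used the numbers. Alternatives were DESeq2 1.42.0, RLE factors, total counts, no filter, a replicate block, all 18 libraries, and each library left out. Scripts were tested on simulated counts. Genes named were the 10 members, the largest change called in each direction in each related list, 12 pathway neighbours, some of which are not reported here, and the most alike gene. Other genes of the related and marker lists were named after their values were seen. The members and lists were chosen with earlier results of these data known.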

Additional observations from a re-analysis of the deposited data

Results flagged for a closer look

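The change in Phgdh from transitional to follicular cells differed between the genotypes by 0.841 on the log2 scale. It was marked because each follicular library was below each transitional library in WT cells and above it in Sh3gl1-/- cells. The interaction test in edgeR gave an adjusted p of 0.0573, and 0.0173 with the replicate block, in a range of 7.75e-05 to 0.414 over 18 alternatives. The marking and the test use the same libraries, so the test is no separate evidence for the marked pattern. The call in Sh3gl1-/- cells was lost when any single library was left out.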

How the results depend on the processing

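Each member's CD40L response kept its direction in all alternatives run, and the number of members called there stayed within 1.5 times. In transitional cells 1 member was called, 3 by DESeq2, 4 without the filter and 0 to 1 with a library left out (0 without Sh3gl1-/- replicate 3). The maturation difference called 0, and 1 by DESeq2, without the filter, with the replicate block and without transitional WT replicate 1. Without the filter 1 was called between genotypes after CD40L and 1 in the response difference. Follicular against transitional called 3 in WT, 1 with 18 libraries and 1 to 3 left out (1 without transitional replicate 2 or follicular replicate 1), and 1 in Sh3gl1-/- cells, 0 with 18 libraries and 0 without any 1 library.

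Over all genes, the transitional count of 514 became 1361 by DESeq2, 1426 without the filter, 90 with the replicate block, 144 with 18 libraries and 28 to 479 left out (216, 51 and 284 without WT replicates 1, 2 and 3, 56 and 28 without Sh3gl1-/- replicates 1 and 3). The follicular count of 115 became 355, 602, 212, 49 and 32 to 112 (47 and 43 without WT replicates 1 and 2, 32 and 53 without Sh3gl1-/- replicates 1 and 3). The CD40L count of 3 became 79, 216, 21, 82 and 1 to 9 (8 and 9 without WT replicates 1 and 3, 1 without Sh3gl1-/- replicate 1 or 3). The response difference called 0, 37 by DESeq2, 210 without the filter and 0 to 1 left out (1 without CD40L WT replicate 2). The maturation difference called 10, then 365, 462, 99 with the block, 0 with 18 libraries, 5 by total counts and 0 to 23 left out (23 without transitional WT replicate 1, 16 without follicular WT replicate 3, 0 without 9 others). Follicular against transitional called 3772 genes in WT, and 2444 to 3324 with a library left out (2444 without follicular replicate 1), and 1518 in Sh3gl1-/- cells, and 986 to 1351 with a library left out (992 without transitional replicate 2, 986 without follicular replicate 3).

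Signs turned where estimates were near 0. In follicular cells, leaving out a library gave Phgdh -0.096 to 0.045, Psph -0.117 to 0.08, Shmt1 -0.105 to 0.131, Shmt2 -0.141 to 0.12 and Mthfd1 -0.113 to 0.275, total counts gave Shmt1 -0.023, and the replicate block gave Shmt2 0.001. After CD40L Atf4 was -0.001 by RLE and by DESeq2, -0.012 with 18 libraries and -0.041 to 0.072 left out, and its response difference was 0.042 by total counts. From transitional to follicular Sh3gl1-/- cells Psph ran from -0.102 to 0.091 and Mthfd2 from -0.166 to 0.039. In the maturation difference Mthfd1l was -0.003 by total counts and -0.093 to 0.214 left out, and Atf4 -0.282 to 0.024. The cause was not tested.

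Replicate numbers did not pair the genotypes (correlations of -0.088 to 0.101). Beyond Mthfd1 in WT maturation and Phgdh in the maturation difference, the block changed no member's call. Low counts limit Asns ex vivo, Mthfd2l, Slc1a4, Chac1 and Atf5.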
